A study of Mus musculus with 12 samples.

Results

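Rfx2, Lrrc2, Lad1, Slc38a11, Spata6, Mei1 and Klhl29 are 7 of the 36131 genes counted in the retinas, and each was chosen by its place near the top of the oxygen or the IC100 comparison of these same samples, together with a little-known role in retinopathy. The choice used the fold changes and calls of those comparisons and had no fixed cutoff, so the differences of these genes between the groups are given as a description, with no test. The retinas came from 12 C57BL/6J wildtype mice at P18 (postnatal day 18), each sequenced as 1 library. RA-PBS mice (animals 1 to 4) stayed in room air and received placebo (PBS), O2-PBS mice (animals 5 to 8) were kept in 75% O2 from P7 to P12 and received PBS, and O2-IC100 mice (animals 9 to 12) had the same oxygen and received IC100, a humanized antibody against the inflammasome adaptor ASC. The treatment was given intraperitoneally on P12, P14 and P16, with IC100 at 10 µg/g. The paper, however, describes its placebo as an injection into the vitreous and names no route for the sequenced retinas. An effect of route was not tested. Such a switch from high oxygen to room air models oxygen-induced retinopathy (OIR), in which retinal vessels are first lost and then regrow as tufts toward the vitreous.

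None of the 7 genes is a classical angiogenic or inflammatory gene. Rfx2 encodes a winged-helix transcription factor that binds X-box sequences and is known for switching on genes of cilia and of maturing sperm. Lrrc2 encodes a leucine-rich repeat protein linked to mitochondria in heart muscle, Lad1 encodes ladinin 1, a protein of epithelial basement membrane anchorage that also associates with actin, and Slc38a11 encodes a putative sodium-coupled neutral amino acid transporter. Spata6 is known from the connecting piece between the head and the tail of sperm, Mei1 from the making of DNA double-strand breaks in meiosis, and Klhl29 belongs to the BTB-kelch family, many of whose proteins bring substrates to cullin-3 ubiquitin ligases.

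Total estimated counts were 14907143 to 24438082 per library. The rod photoreceptor list summed to 36380 to 43360 normalized CPM (the count of a gene relative to the TMM-scaled total of its library) in 11 retinas, and to 9887 CPM in animal 10 of O2-IC100, whose library stood apart. Lens genes took 51% of the counts of animal 10, 1.09 to 4.05% in RA-PBS animals 2, 3 and 4 and at most 0.012% in the other 8, and the lens, pigment epithelium and erythrocyte lists were all highest in animal 10. Each comparison below is therefore given with all 12 animals and without animal 10. Y-linked genes summed to 223.9 to 321.7 CPM in animals 1, 2, 3, 8, 9, 11 and 12 and to 3.886 to 9.886 CPM in animals 4, 5, 6, 7 and 10, so that 3 of 4 RA-PBS, 1 of 4 O2-PBS and 3 of 4 O2-IC100 libraries were on the high side.

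The promoters of the 4 genes that rose and returned together (Rfx2, Lrrc2, Lad1 and Klhl29), and that of Spata6, are shown as RefSeq gives them for GRCm38.p6, from 250 bases before to 50 bases after the annotated start, 5′ to 3′ on the strand of the gene. They lie at chr17:56830959-56831258 (minus strand), chr9:110951295-110951594 (plus), chr1:135818348-135818647 (plus), chr12:5375633-5375932 (minus) and chr4:111719760-111720059 (plus). Capitals mark matches on either strand to the motifs named after the sequences.
Rfx2: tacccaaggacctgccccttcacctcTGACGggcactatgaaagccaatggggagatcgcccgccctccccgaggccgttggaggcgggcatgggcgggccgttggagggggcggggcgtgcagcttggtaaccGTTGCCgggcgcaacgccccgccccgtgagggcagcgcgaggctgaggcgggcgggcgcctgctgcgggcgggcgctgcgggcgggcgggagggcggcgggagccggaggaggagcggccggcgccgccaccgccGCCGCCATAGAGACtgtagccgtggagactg
Lrrc2: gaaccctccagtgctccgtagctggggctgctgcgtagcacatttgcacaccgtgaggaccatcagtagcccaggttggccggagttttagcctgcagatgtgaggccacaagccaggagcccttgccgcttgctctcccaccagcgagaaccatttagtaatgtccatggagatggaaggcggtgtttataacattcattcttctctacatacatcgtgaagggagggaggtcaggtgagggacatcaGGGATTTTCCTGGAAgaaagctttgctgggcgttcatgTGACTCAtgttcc
Lad1: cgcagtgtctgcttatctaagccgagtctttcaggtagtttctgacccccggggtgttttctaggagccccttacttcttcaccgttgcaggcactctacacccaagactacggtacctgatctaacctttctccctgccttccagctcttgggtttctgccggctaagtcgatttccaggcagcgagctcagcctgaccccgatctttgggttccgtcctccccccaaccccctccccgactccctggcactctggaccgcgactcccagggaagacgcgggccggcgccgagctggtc
Klhl29: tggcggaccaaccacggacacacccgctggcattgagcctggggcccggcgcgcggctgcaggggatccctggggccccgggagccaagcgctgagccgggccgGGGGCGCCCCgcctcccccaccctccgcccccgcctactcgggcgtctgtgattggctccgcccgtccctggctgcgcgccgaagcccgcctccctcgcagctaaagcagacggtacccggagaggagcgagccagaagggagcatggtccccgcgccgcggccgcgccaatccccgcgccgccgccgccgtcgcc
Spata6: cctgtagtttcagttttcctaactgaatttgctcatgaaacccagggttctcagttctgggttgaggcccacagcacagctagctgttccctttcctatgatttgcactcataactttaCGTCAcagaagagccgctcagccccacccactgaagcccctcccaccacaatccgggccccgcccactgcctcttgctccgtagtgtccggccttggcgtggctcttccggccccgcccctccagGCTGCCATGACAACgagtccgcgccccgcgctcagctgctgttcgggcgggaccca

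The 4 promoters that belong to genes with the same expression pattern differed in composition. Those of Rfx2 and Klhl29 were 75.7% and 77.3% G and C with 38 and 40 CpG dinucleotides, while those of Lrrc2 and Lad1 were 53.7% and 60.3% G and C with 9 and 18 CpG. In the Rfx2 promoter the run of 6 capitals is the RFX core GTTGCC, held by 12.5% of 32851 promoters of the same length, the run of 5 is the CRE core TGACG (20.8% of promoters), and the run of 14, which begins at base 20 after the start, matches the X-box consensus (4.79%). The Lrrc2 promoter held a STAT site (TTCNNNGAA, 8.3% of promoters) from base 6 and an AP-1 site (TGANTCA, 7.81%) from base 38 after the start. It also held an NF-kB consensus match (8.46% of promoters), which begins at the base just before the start and overlaps the STAT site, so that both make up 1 run of capitals. The Klhl29 promoter held an NF-kB consensus match that reads as one on both strands. The Spata6 promoter held the CRE core on the opposite strand and an X-box consensus match that spanned the start. The X-box consensus and the NF-kB consensus were added after these promoters had been read, each with a match in view. The hypoxia response core ACGTG (19.6%) was found in none of the 5 windows shown, and no motif searched was found in that of Lad1, nor in those of Slc38a11 and Mei1, which are not shown. A second Spata6 promoter in the same table, not shown, held an AP-1 site and ACGTG.

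The genes fell into 3 patterns. Rfx2, Lrrc2, Lad1 and Klhl29 were higher in O2-PBS than in RA-PBS and came most of the way back in O2-IC100 on the linear CPM scale. A larger part of the rise was left on the log2 scale, most of all for Lad1. Without animal 10, the log2 fold changes of O2-IC100 over RA-PBS were 0.665, 0.443, 2.068 and 0.218 for these 4 genes. Their rises with oxygen in the same fit were 1.771, 1.253, 4.137 and 0.996. Slc38a11 and Spata6 were also higher in O2-PBS but did not return. Mei1 overlapped between RA-PBS and O2-PBS and was lowest in O2-IC100. Per length of transcript (CPM per kilobase of the longest coding transcript), the order in O2-PBS was Lrrc2 at 16.1, Klhl29 at 12.8, Rfx2 at 9.51, Lad1 at 5.81, Spata6 at 3.79, Slc38a11 at 1.12 and Mei1 at 0.403. Mei1 and Slc38a11 were rare transcripts, with 8.15% and 19.4% of the tested genes below them in that group, while 74.1% were below Lrrc2. In whole retina, a change in the number of cells that carry a transcript and a change in its amount per cell cannot be told apart.

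**Figure D1:**
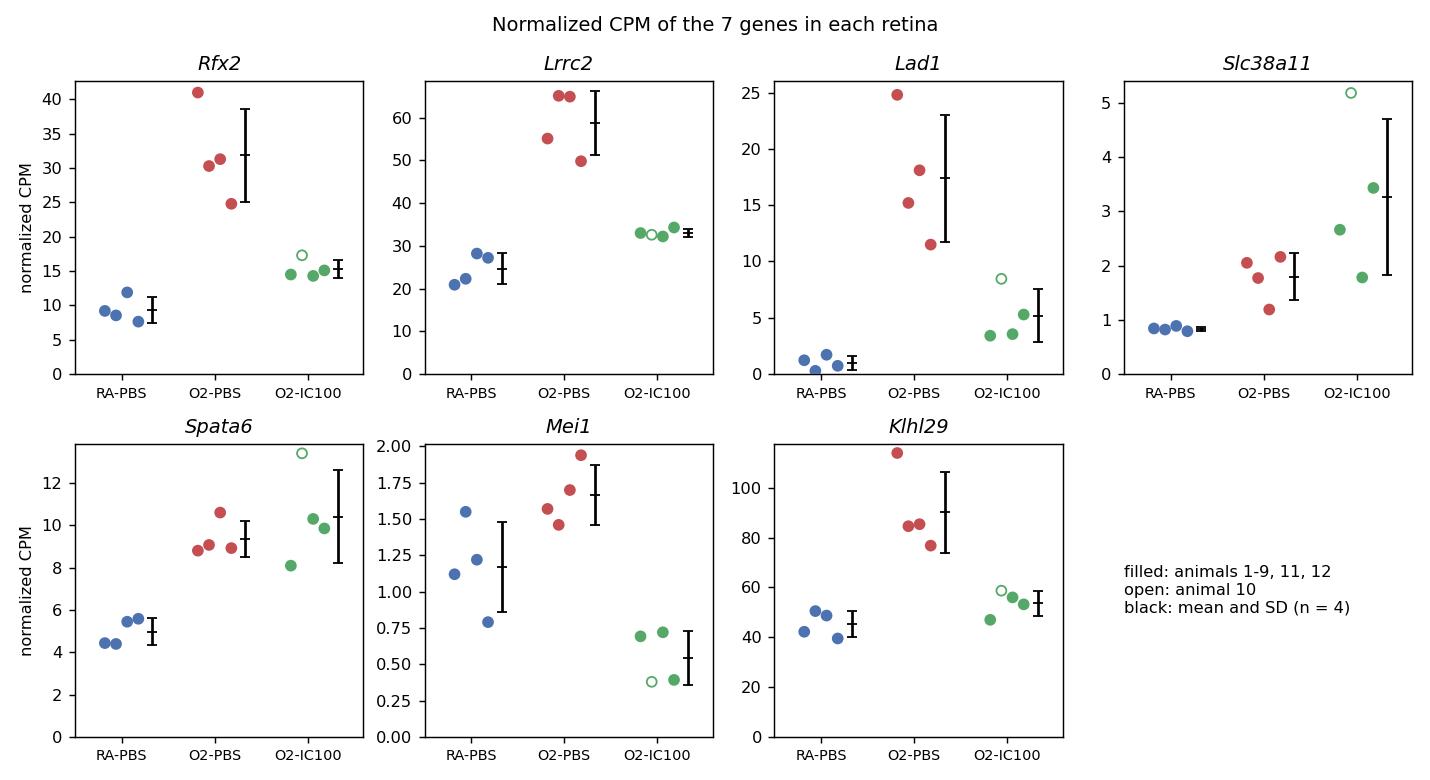
Normalized CPM (y axis, linear from 0, a scale for each gene) of the 7 genes in each retina by group, with points for animals (open for animal 10) and black bars for the mean ± SD of 4. In 6 panels all O2-PBS points sit above all RA-PBS points, with Mei1 the exception.

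Rfx2, the transcription factor, was at 9.2, 8.55, 11.9 and 7.64 CPM in the RA-PBS retinas and at 41, 30.3, 31.3 and 24.8 CPM in the O2-PBS retinas. In O2-IC100 it was at 14.5, 17.3, 14.3 and 15.1 CPM in animals 9 to 12. No 2 groups overlapped, and the O2-IC100 values lay between the other 2 groups, nearer to RA-PBS. The log2 fold change of O2-PBS over RA-PBS was 1.77 ± 0.19 (SE, from the fit to all 12 animals), that of O2-IC100 over O2-PBS was −1.06 ± 0.18, or −1.11 ± 0.17 without animal 10. Of the rise in mean CPM with oxygen, 23.5% was left in animals 9, 11 and 12 (21.9 to 25.6% in each), and these 3 libraries differed by a factor of 1.06 at most.

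Lrrc2, the leucine-rich repeat gene, was at 20.9, 22.3, 28.2 and 27.2 CPM in RA-PBS, at 55.1, 65.1, 64.9 and 49.8 CPM in O2-PBS and at 33, 32.6, 32.2 and 34.3 CPM in O2-IC100. Again the groups did not overlap. All 4 O2-IC100 retinas were within a factor of 1.06 of each other, animal 10 included, for a coefficient of variation of 2.72% against 12.9% in O2-PBS. The log2 fold changes were 1.25 ± 0.13 for O2-PBS over RA-PBS and −0.83 ± 0.13 for O2-IC100 over O2-PBS (−0.81 ± 0.13 without animal 10), with 25% of the rise left without animal 10.

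Lad1, the ladinin gene, had the widest range of the 7. It was nearly absent from room-air retinas, at 1.23, 0.29, 1.72 and 0.737 CPM (22, 6, 31 and 14 counts), and stood at 24.8, 15.2, 18.1 and 11.5 CPM in O2-PBS. The O2-IC100 values were 3.41, 8.46, 3.55 and 5.29 CPM, below every O2-PBS and above every RA-PBS retina, with the lens-rich animal 10 the highest, at 2.07 times the mean of the other 3. The log2 fold change of O2-PBS over RA-PBS was 4.13 ± 0.51, a 17.5-fold difference that ranked 9th of the 16489 genes tested. The others of the 7 ranked from 131st (Rfx2) to 1645th (Mei1) in that comparison, with Spata6 at 695th. For O2-IC100 over O2-PBS it was −1.76 ± 0.46, or −2.07 ± 0.36 without animal 10, and 18.9% of the rise in mean CPM was left without that animal. For O2-IC100 over RA-PBS it was 2.36 ± 0.49, a 5.14-fold difference, or 2.07 ± 0.41 without animal 10.

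Klhl29, the BTB-kelch gene, was the most abundant by CPM, at 42.2, 50.5, 48.7 and 39.5 in RA-PBS and 114, 84.6, 85.4 and 76.8 in O2-PBS. O2-IC100 retinas were at 47, 58.7, 56 and 53.2 CPM, all below O2-PBS but overlapping RA-PBS. The log2 fold change with oxygen was 1.00 ± 0.14, and that of O2-IC100 over O2-PBS was −0.75 ± 0.14 (−0.78 ± 0.13 without animal 10). It was the closest of the 4 to its room-air level, with 15.2% of the rise left without animal 10.

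The 4 returning genes also varied together across animals. Over the 11 animals without animal 10, Pearson r between pairs of them was 0.88 to 0.97 on the log2 CPM scale, a description that rests largely on the 3 groups they share. Animal 5 was the highest O2-PBS library for Rfx2, Lad1 and Klhl29, but for Lrrc2 it was below animals 6 and 7. Animal 8 was the lowest O2-PBS library for all 4, at 24.8 CPM for Rfx2, 49.8 for Lrrc2, 11.5 for Lad1 and 76.8 for Klhl29.

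Spata6, the sperm connecting-piece gene, was at 4.43, 4.39, 5.44 and 5.58 CPM in RA-PBS and 8.8, 9.07, 10.6 and 8.92 CPM in O2-PBS, with no overlap. It was at 8.09, 13.4, 10.3 and 9.85 CPM in O2-IC100, so the treated retinas spread around the O2-PBS values, with animal 10 the highest. The log2 fold change was 0.91 ± 0.18 with oxygen and 0.15 ± 0.18 for O2-IC100 over O2-PBS (0.03 ± 0.15 without animal 10). Without animal 10, 101% of the rise was left.

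Slc38a11, the putative amino acid transporter, was even in room air, at 0.841, 0.821, 0.888 and 0.79 CPM (15 to 17 counts), and was at 2.05, 1.77, 1.19 and 2.16 CPM in O2-PBS. In O2-IC100 it was at 2.66, 5.18, 1.78 and 3.43 CPM, overlapping O2-PBS and above all RA-PBS retinas, with animal 10 at 1.97 times the mean of the other 3. The log2 fold changes were 1.10 ± 0.34 with oxygen, 0.84 ± 0.32 for O2-IC100 over O2-PBS (0.56 ± 0.29 without animal 10) and 1.94 ± 0.34 for O2-IC100 over RA-PBS (1.66 ± 0.30 without it). Its mean was further from room air with IC100 than with oxygen alone, at 187% of the rise without animal 10 (98.2 to 271% in each of animals 9, 11 and 12), on 37 to 70 counts per treated library.

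Mei1, the meiotic double-strand break gene, was at 1.12, 1.55, 1.22 and 0.79 CPM in RA-PBS and 1.57, 1.46, 1.7 and 1.94 CPM in O2-PBS, which overlapped. In O2-IC100 it was at 0.692, 0.379, 0.72 and 0.392 CPM, below every retina of both other groups. The log2 fold change with oxygen was 0.51 ± 0.30, that of O2-IC100 over O2-PBS −1.56 ± 0.32 (−1.45 ± 0.35 without animal 10) and that of O2-IC100 over RA-PBS −1.06 ± 0.32 (−0.94 ± 0.35). These values rest on 3 to 15 counts in the treated libraries, 3 of them in animal 10, and on 15 to 35 counts in the others.

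**Figure D2:**
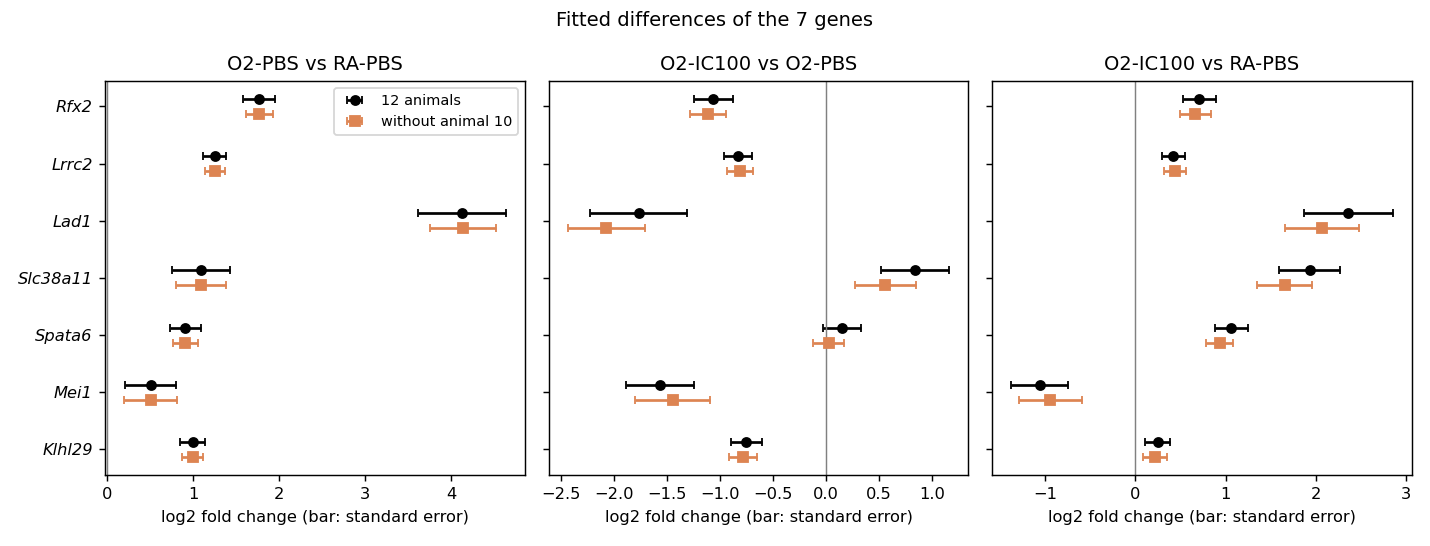
Log2 fold change (x axis) of each gene (y axis) in the 3 comparisons, with black circles for the fit to 12 animals, orange squares for the fit without animal 10 and bars for the standard error. Rfx2, Lrrc2, Lad1, Mei1 and Klhl29 lie left of 0 for O2-IC100 against O2-PBS in both fits, and Slc38a11 lies right of it.

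Set against all genes, the counts read as follows, with the reminder that these comparisons chose the genes. The thresholds of the study were a 1.5-fold difference or more, with p below 0.05 and adjusted p below 0.1. In O2-PBS over RA-PBS, 5 of the 7 were past the thresholds upward with 12 animals (all but Slc38a11 and Mei1), where 0.782% of the tested genes were higher and 0.0243% lower. Without animal 10 there were 6 (all but Mei1), where 4.09% of genes were higher and 2.18% lower. In O2-IC100 against O2-PBS no gene at all passed with 12 animals (0% higher and 0% lower), although 2784 genes had an unadjusted p-value under 0.05 by edgeR, and DESeq2 called 125 genes, 5 of the 7 among them. Without animal 10, Rfx2, Lrrc2, Lad1, Mei1 and Klhl29 were past the thresholds downward, where 0.216% of genes were higher and 0.731% lower.

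Against RA-PBS, O2-IC100 retinas had 0% of genes higher and 0% lower past the thresholds with 12 animals, with 2183 genes at an unadjusted p-value under 0.05 and 299 called by DESeq2. Without animal 10, 0.947% were higher, Rfx2, Lad1, Slc38a11 and Spata6 among them, and 0.617% lower. Counted by overlap alone, 6 of the 7 genes were higher in every O2-PBS than in every RA-PBS retina (7.81% of all genes tested), and 5 were lower in every O2-IC100 than in every O2-PBS retina (10.7%). All O2-IC100 retinas lay above all RA-PBS retinas for Rfx2, Lrrc2, Lad1, Slc38a11 and Spata6, a pattern of 2.57% of all genes. The median log2 fold change of the 7 was 1.10 with oxygen and −0.81 with IC100 without animal 10, beside −0.01 and 0.00 over all tested genes.

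Because Y-linked levels in O2-PBS differed from those in both other groups, the values were also read within each side. In each of these readings 1 of the groups was 1 library (animal 8 of O2-PBS or animal 4 of RA-PBS), so its spread is not seen. On the high side, animal 8 of O2-PBS was above animals 9, 11 and 12 of O2-IC100 for Rfx2 (24.8 against 14.3 to 15.1 CPM), Lrrc2 (49.8 against 32.2 to 34.3), Lad1 (11.5 against 3.41 to 5.29), Klhl29 (76.8 against 47 to 56) and Mei1 (1.94 against 0.392 to 0.72). With oxygen, the same animal was above RA-PBS animals 1 to 3 for all 7 genes. On the low side, O2-PBS animals 5 to 7 were all above RA-PBS animal 4 for all 7 genes, for example 15.2 to 24.8 CPM against 0.737 for Lad1 and 1.19 to 2.05 against 0.79 for Slc38a11. With the Y-linked level as a covariate and without animal 10, the log2 fold changes of O2-IC100 over O2-PBS were −1.05 for Rfx2, −0.61 for Lrrc2, −1.76 for Lad1, −1.83 for Mei1 and −0.77 for Klhl29, and none of the 5 was past the thresholds, while 47 genes were. In the same fit, those of O2-PBS over RA-PBS were 1.73 for Rfx2, 1.14 for Lrrc2, 3.95 for Lad1 and 1.20 for Slc38a11. They were 0.84 for Spata6, 0.75 for Mei1 and 0.99 for Klhl29.

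Marker lists of several retinal cell types moved in the same animals. The O2-IC100 ranges of all these lists leave out animal 10. That animal was at 268.4 CPM for tip cell and tuft, 3699 for reactive Müller glia, 705.9 for pericyte and mural and 78.81 for endothelial. It was at 617.2 for microglia and macrophage, 7474 for resting Müller glia, 245.1 for ganglion cell, 727.5 for amacrine, 1147 for bipolar and 10340 for pigment epithelium. The tip cell and tuft list summed to 32.32 to 59.6 CPM in RA-PBS, 152.3 to 269.1 in O2-PBS and 81.69 to 104.1 in O2-IC100 without animal 10, and 10 of its 10 genes were past the thresholds with oxygen in that fit. The reactive Müller glia list went from 356.7 to 805.8 CPM in RA-PBS to 900.6 to 1398 in O2-PBS and 545.8 to 667 in O2-IC100, the pericyte and mural list from 177.3 to 209.1 to 366.1 to 539.3 and then 315.6 to 375.9, and the endothelial list from 296.5 to 416.3 to 576.3 to 675.6 and then 401.8 to 445.8. In these 4 lists every O2-PBS retina was above every RA-PBS retina, as for Rfx2, Lrrc2, Lad1 and Klhl29, and without animal 10 every O2-IC100 retina was below every O2-PBS retina in all but the pericyte and mural list. The microglia and macrophage list, at 67.86 to 132.6, then 132 to 163.7 and then 157.4 to 188.8 CPM, did not return, as Spata6 and Slc38a11 did not. Other lists were lower with oxygen. The resting Müller glia list summed to 3732 to 5005 CPM in RA-PBS, 2903 to 3255 in O2-PBS and 3518 to 3812 in O2-IC100 without animal 10 (2 of 9 genes past the thresholds as lower with oxygen), and the ganglion cell list to 1056 to 1509, 847.3 to 922.4 and 998.8 to 1060 (1 of 11). The amacrine list was at 1356 to 1737, 1086 to 1204 and 1204 to 1292 CPM (0 of 10), and the bipolar list at 1516 to 1933, 1385 to 1623 and 1392 to 1451 (2 of 10). The pigment epithelium list was at 133.4 to 394.3, 72.76 to 160.4 and 188 to 195.4 CPM, with 7 of 11 genes lower with oxygen. All 19 tested lens genes were lower with oxygen, but this rests on RA-PBS animals 2 to 4, where the lens list summed to 10200 to 37990 CPM. RA-PBS animal 1 was at 13.24 CPM, beside 11.58 to 108.2 in O2-PBS. The pigment epithelium list was likewise at 133.4 CPM in animal 1 and at 289 to 394.3 in animals 2 to 4. Whether oxygen changed either list within the retina was not tested. The resting Müller glia, ganglion cell and amacrine lists did not overlap between RA-PBS and O2-PBS, while the bipolar, pigment epithelium and lens lists did. Every gene of these lists but 1 of the 20 lens genes passed the filter on low counts, and the part of any cell type in the values of the 7 genes was not tested.

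The genes whose pattern was most like each of the 7, by Pearson r of log2 CPM over the 11 animals, are given as a description, since all share the same libraries and groups. For Rfx2 they were Tgm2 (r = 0.989), which encodes a transglutaminase, Cdh23 (0.985), a cadherin gene of hair cells, and Jak3 (0.984), a cytokine receptor kinase gene. Lrrc2 was close to Itih5 (0.969) and Ttyh2 (0.965), and Klhl29 was most like Agtpbp1 (0.980), Pfkp (0.980), which encodes platelet-type phosphofructokinase, and Bcl2l11 (0.973). Lad1 was most like Egln3 (0.977), a prolyl hydroxylase gene of the hypoxia pathway, Fgf2 (0.975), a growth factor gene that is also on the reactive Müller glia list, and Ulbp1 (0.975).

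Spata6 was most like Laptm5 (0.968) and Lyn (0.966), which are expressed in leukocytes, and Ppic (0.966), a cyclophilin gene. Laptm5 was at a mean of 4.82 CPM in RA-PBS, 10.3 in O2-PBS and 11.4 in O2-IC100 without animal 10, beside 4.96, 9.34 and 9.41 for Spata6. Slc38a11 had the loosest matches, Zfp800 (0.914), Mylip (0.905) and Mmp11 (0.877). Mei1 was most like Itpr2 (0.942), Pcdhga10 (0.935) and Olfr1012 (0.934). These names depended on the measure: of the 21 genes, 2 were again among the nearest 3 by Spearman rank correlation and 7 with all 12 animals.

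Relatives of the 7 genes, taken from lists of their families and pathways, had 0 calls with oxygen in the 12 animals by edgeR. No gene at all passed in the other 2 comparisons of that fit, so 0 was the only possible count there. DESeq2 called 2, 0 and 2 relatives for oxygen, IC100 against O2-PBS and IC100 against RA-PBS. Without animal 10, edgeR called 4.09% of all tested genes higher and 2.18% lower with oxygen. The shares were 0.216% and 0.731% with IC100 against O2-PBS, and 0.947% and 0.617% against RA-PBS. In the same order, 3648, 3201 and 2595 of 16688 genes had an unadjusted p-value under 0.05. At such shares a short list can have 0 calls without differing from other genes. The 7 genes were chosen by these comparisons and their relatives were not. A larger change in one of the 7 than in its relatives can therefore follow from the choice alone, here and in the lists below. The RFX family encodes X-box binding factors and their partners, and of its 7 other members tested 0 passed in any comparison without animal 10 by edgeR (3, 2 and 0 of them at an unadjusted p-value under 0.05 with oxygen, with IC100 against O2-PBS and with IC100 against RA-PBS), nor by DESeq2. Their log2 fold changes with oxygen were 0.28 for Rfx1, 0.01 for Rfx3, −0.45 for Rfx4, −0.30 for Rfx5 (adjusted p = 0.0476, under the fold threshold), 0.08 for Rfx7, 0.06 for Rfxank and −0.27 for Rfxap, beside 1.77 for Rfx2. Against O2-PBS, the same genes were at −0.31, −0.09, 0.37, 0.25, 0.10, −0.14 and 0.25 in O2-IC100. Of 27 tested genes of the cilium and axoneme, a class of known RFX targets, 0 passed with oxygen or with IC100 against O2-PBS by edgeR (5 and 5 at an unadjusted p-value under 0.05) or DESeq2, and their median log2 fold change with oxygen was 0.09. With IC100 against RA-PBS 0 of them passed by edgeR (9 at an unadjusted p-value under 0.05), with a median of 0.14, and DESeq2 called 1 of them, the axonemal dynein gene Dnah11 (log2 fold change −0.63, adjusted p = 0.0596 by DESeq2), which was singled out after its value was seen.

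In the SLC38 family of amino acid transporters, 0 of 9 other tested genes passed with oxygen or with IC100 against O2-PBS by edgeR (4 and 0 at an unadjusted p-value under 0.05) or DESeq2. With oxygen their log2 fold changes were −0.28 for Slc38a1, −0.17 for Slc38a2, −0.01 for Slc38a3, 0.50 for Slc38a5, 0.25 for Slc38a6, −0.01 for Slc38a7, 0.50 for Slc38a8, 0.21 for Slc38a9 and 0.04 for Slc38a10. For O2-IC100 over O2-PBS, only 2 of the 9 were above 0, with a median of −0.107, so most went the other way from Slc38a11. Slc38a5, a glutamine transporter gene, had the same direction as Slc38a11 in each comparison, at 0.50 for O2-IC100 over O2-PBS and 1.00 over RA-PBS (adjusted p = 0.108), and missed the threshold by edgeR. Against RA-PBS edgeR called 0 of the 9 (3 at an unadjusted p-value under 0.05), and DESeq2 called 1, which was Slc38a5 (log2 fold change 0.99, adjusted p = 0.0252). Slc38a1 had an adjusted p-value of 0.0878 against RA-PBS at a log2 fold change of −0.44, under the fold threshold.

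Among 40 other BTB-kelch and cullin-3 genes tested, 1 passed with oxygen without animal 10 by edgeR (11 at an unadjusted p-value under 0.05) and by DESeq2. This was Klhl6, known from B lymphocytes, at 0.821 to 1.96 CPM in RA-PBS and 2.19 to 4.16 CPM in O2-PBS, a log2 fold change of 1.26 ± 0.30 (adjusted p = 0.0195). Unlike Klhl29, it was at 1.89 to 4.22 CPM in O2-IC100 and passed against RA-PBS (log2 fold change 1.52, adjusted p = 0.0473), as did Klhl23 (0.68, adjusted p = 0.08), while DESeq2 called Klhl38 there as well (−1.10, adjusted p = 0.0735 by DESeq2). The difference between Klhl6 and Klhl29 in their response to IC100 was not tested. With IC100 against O2-PBS, 0 of the 40 passed by edgeR (8 at an unadjusted p-value under 0.05) or DESeq2.

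Of 27 other genes of epithelial anchorage, the setting in which Lad1 is known, 1 passed with oxygen, 1 with IC100 against O2-PBS and 1 with IC100 against RA-PBS by edgeR without animal 10 (4, 5 and 5 at an unadjusted p-value under 0.05), where DESeq2 called 2, 3 and 2. Flna, which encodes the actin crosslinker filamin A, was at 84.6, 113, 133 and 77.5 CPM in RA-PBS, 251, 163, 168 and 193 CPM in O2-PBS and 109, 164, 107 and 121 CPM in O2-IC100. Its log2 fold change was 0.92 ± 0.17 with oxygen (adjusted p = 0.00442) and −0.77 ± 0.18 with IC100 against O2-PBS (adjusted p = 0.0903). Its O2-IC100 values overlapped those of RA-PBS, and those of O2-PBS only through animal 10, at 164 CPM. Dst, which encodes dystonin, was lower in O2-IC100 than in RA-PBS (log2 fold change −0.82, adjusted p = 0.0667). DESeq2 called the same genes there, and its other calls included Krt8 (−0.95) with oxygen, Dst (−0.61) with IC100 against O2-PBS and Ppl (−1.69) with IC100 against RA-PBS, at adjusted p-values by DESeq2 of 0.0654, 0.0421 and 0.0172. This list summed to 2239 CPM in animal 10 and 599.5 to 1086 in the other 11.

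The germ cell genes Mei1 and Spata6 and the mitochondrial gene Lrrc2 stood beside lists with no call. Without animal 10, of 22 other tested genes of meiotic recombination 0 passed with oxygen or with IC100 against O2-PBS by edgeR (3 and 3 at an unadjusted p-value under 0.05) or DESeq2, with medians of 0.08 and −0.08 beside 0.51 and −1.45 for Mei1. Of 12 other tested genes of the sperm head-tail junction and tail 0 passed by either tool (0 and 2), with medians of 0.16 and 0.10. Of 20 genes of mitochondrial biogenesis, listed for Lrrc2, 0 passed by either tool (2 and 1), with medians of −0.07 and 0.03. With IC100 against RA-PBS the 3 lists also had 0 calls by either tool (2, 2 and 1 at an unadjusted p-value under 0.05), with medians of 0.04, 0.23 and −0.02.

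**Figure D3:**
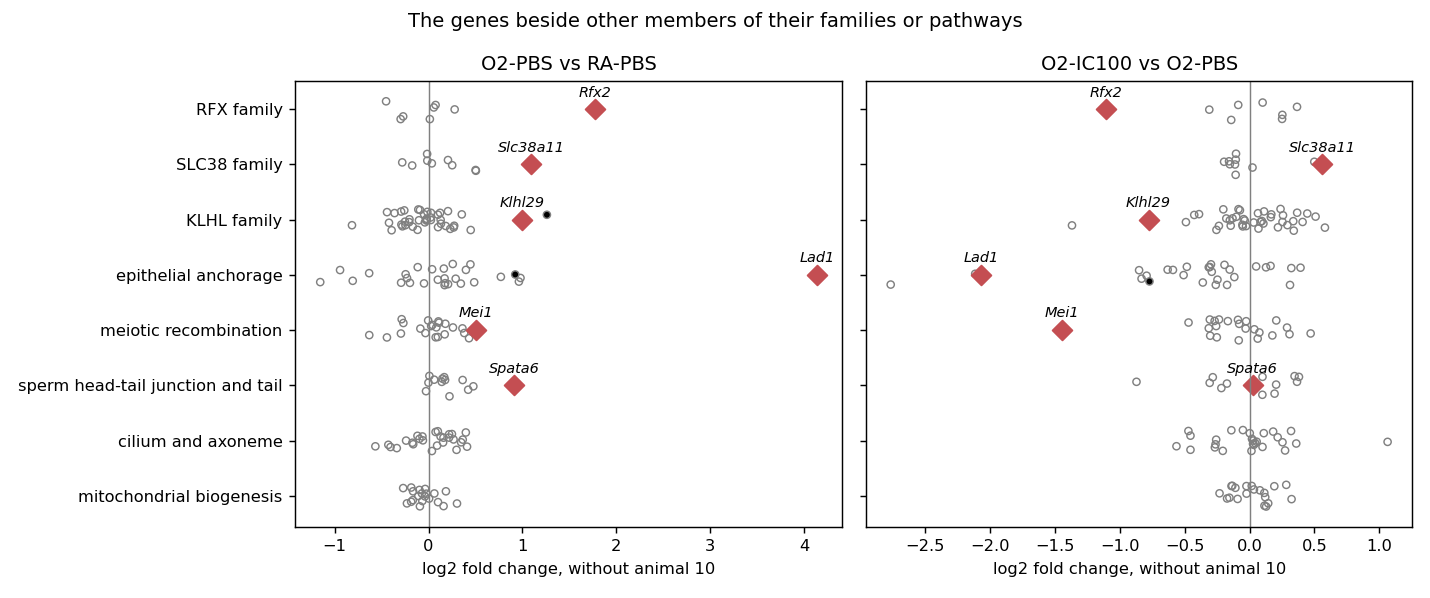
Log2 fold change (x axis, fit without animal 10) of each listed gene (points, filled where past the thresholds) by family or pathway (y axis), with red diamonds for the 7 genes that appear on a list (Lrrc2 is on none). Rfx2 at 1.77 and Lad1 at 4.14 with oxygen lie beyond every other gene on their rows. They were chosen by these comparisons and the other genes were not, so this is no test of a difference from their families.

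The gene order around Lad1 held a second gene with a like course. The protein-coding gene that follows Lad1 in the RefSeq order of GRCm38 is Tnnt2, which encodes cardiac troponin T of the muscle thin filament. Tnnt2 was at 0, 0.435, 1.22 and 1.21 CPM in RA-PBS, at 14.8, 18.2, 25.3 and 12.1 CPM in O2-PBS and at 4.05, 3.03, 4.18 and 5.88 CPM in O2-IC100. Like Lad1, it was nearly absent in room air and intermediate with IC100, with no overlap between groups. Its log2 fold change with oxygen was 4.61 ± 0.69 with 12 animals (adjusted p = 0.0191) and 4.61 ± 0.50 without animal 10 (adjusted p = 0.000243), and that of O2-IC100 over O2-PBS was −2.03 ± 0.60 (adjusted p = 0.287) and −1.89 ± 0.45 (adjusted p = 0.0991). In animal 10, Tnnt2 was the lowest of the O2-IC100 group and Lad1 the highest.

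The next genes on either side were not past the thresholds. Without animal 10, the log2 fold changes with oxygen were 0.37 for Phlda3, 0.07 for Tnni1, which encodes a slow skeletal troponin I, and −0.05 for Pkp1, a plakophilin gene. Around the other 6 genes, 2 neighbours on each side were looked up and none of those tested was past the thresholds in either fit. Scn2a beside Slc38a11 had an adjusted p-value of 0.00322 at a log2 fold change of −0.44, under the fold threshold. Exons of the 7 genes shared no bases with exons of other genes in the GENCODE M21 annotation.

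**Figure D4:**
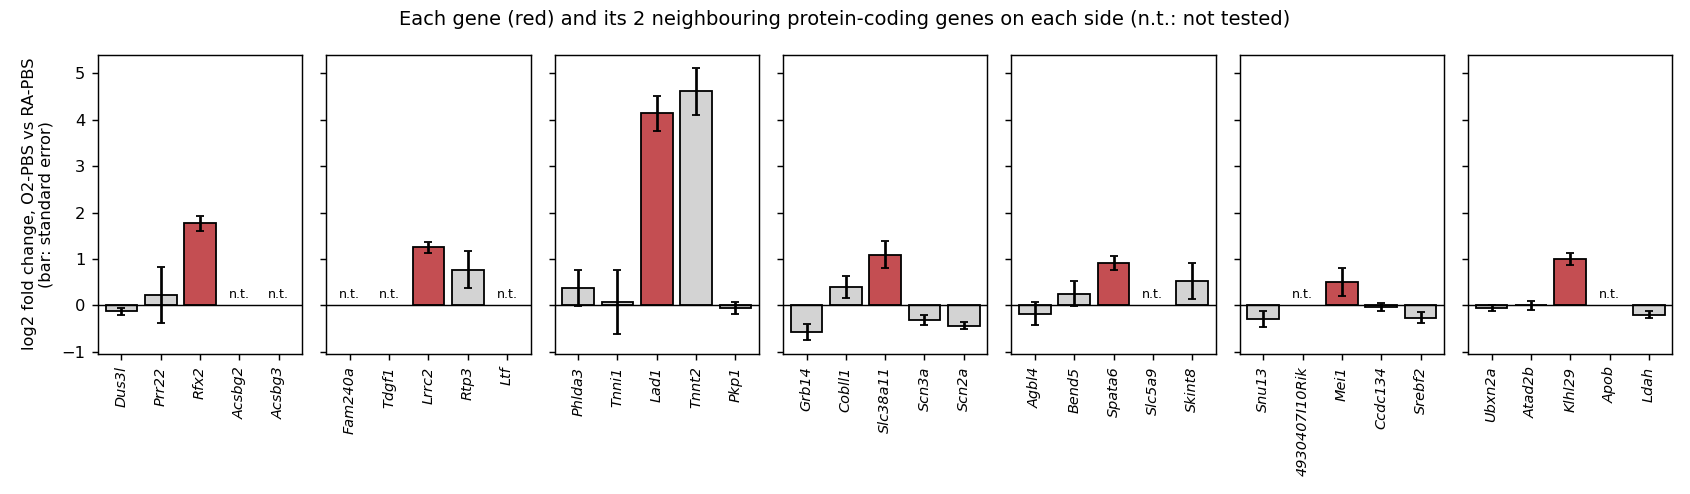
Log2 fold change of O2-PBS over RA-PBS (y axis, bars with standard errors, fit without animal 10) for each of the 7 genes (red) and the 2 protein-coding genes before and after it in genome order (grey, n.t. where the symbol was not among the tested genes). Tnnt2, next to Lad1, is the one neighbour above 4 on this scale.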

How the data were processed

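Retinal RNA of 12 mice was sequenced as 150 bp paired-end reads after polyA selection. The authors pseudoaligned the reads to mm_GRCm39_104 with Kallisto and summarized genes with tximport, so the deposited values are estimated counts per gene, not scaled to library size (42.2% are not whole), and they were rounded here. Of 36131 Ensembl identifiers, 35374 were paired with a symbol from the GENCODE M21 names, and the row with the highest count was used where several matched. Genes passing filterByExpr (16489, or 16688 without animal 10) were scaled by TMM and fitted with edgeR 4.0.16 (R 4.3.3) by the quasi-likelihood F test, robust, two-sided, with all groups in 1 fit and Benjamini-Hochberg adjustment over all tested genes, where the study used DESeq2. Standard errors were taken as the log2 fold change over the square root of F. CPM in the text are TMM-normalized, and log2 CPM for likeness used a prior count of 2. A count of 3 corresponds to 0.379 of these CPM in animal 10 and to 0.144 to 0.181 in the other libraries, which covers counting error only.

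The 7 genes, the gene lists, the rules and the fits were chosen with earlier results of these data known, so the differences of the 7 carry no p-value. Named genes are the 7, the 3 most like each at a mean of at least 1 CPM, listed genes past a threshold and all tested genes of the RFX and SLC38 families. Of the genes most like Lrrc2, 1 is not reported here, nor is 1 of the relatives called by DESeq2. Neighbours and marker lists were looked up as well. Of the listed genes, Iho1, Klhl17, Klhl27, Meiosin and Shoc1 were not matched to a symbol. The labels do not say whether mice came from separate litters, so p-values measure the spread between these libraries. DESeq2 1.42.0, limma 3.58.1 voom, RLE scaling, no filter, pairwise fits, a lens covariate, a Y-linked covariate and each animal left out were the alternatives. All 3 tools were tested on simulated data. Protein sequences and the GRCm39 genome were not used here, and promoters are RefSeq sequences of GRCm38.p6.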

Additional observations from a re-analysis of the deposited data

Results flagged for a closer look

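In 1 of the 21 sets of 4 values (7 genes in 3 groups), 1 library stood apart by Dixon's criterion. Spata6 in O2-PBS animal 7 was at 10.6 CPM, with the other 3 O2-PBS retinas at 8.8 to 9.07 CPM, so that the gap was 0.849 of the whole range. Chance alone flags about 1 in 20 such sets. Animal 7 was not apart from its group in the other 6 genes by the same criterion.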

How the results depend on the processing

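No paired analysis was possible because animal numbers are not shared between the groups. Each of the 21 differences of the 7 genes was recomputed under 21 settings, and all 441 values kept their sign. Of them, 438 stayed within 1 SD of the value with 12 animals. The other 3 were Slc38a11 with oxygen (1.42) and Spata6 with oxygen (1.12) under the lens covariate, and Lrrc2 with IC100 against O2-PBS (−0.61) under the Y-linked covariate without animal 10. Counts of calls moved far more, and the cause was not tested. With 12 animals edgeR called 133, 0 and 0 genes for oxygen, IC100 against O2-PBS and IC100 against RA-PBS, among them 5, 0 and 0 of the 7 and 0 of their relatives in each. In the same order, DESeq2 called 412, 125 and 299 genes, with 5 of the 7 in the first and the second and 4 in the third, and 2, 0 and 2 relatives. Limma voom called 192, 2 and 2 genes and 1 relative, the last with oxygen, and without a filter 2 genes passed for IC100 against RA-PBS. Fits of only the groups compared called 867 genes and 2 relatives with oxygen. With the lens covariate the counts were 2513 and 3309 for both comparisons with RA-PBS, with 20 and 31 relatives and, in the second, 5 of the 7.

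Leaving out single animals, or animal 10 with RA-PBS animal 3, gave 32 to 1343 genes with oxygen, 0 to 274 with IC100 against O2-PBS and 0 to 299 against RA-PBS, with 0 to 5 and 0 to 4 of the 7 in the last 2 and 0 to 3, 0 to 2 and 0 to 3 relatives. Only the settings without animal 10 called any gene for IC100 against O2-PBS in edgeR: 158 genes and 5 of the 7 without it, and 274 and 5 without RA-PBS animal 3 as well. With oxygen, leaving out animal 10 raised the count to 1046, while leaving out any of animals 1 to 8 lowered it to 32 to 80. Without animal 10, DESeq2 called 1167, 383 and 567 genes, with 6, 4 and 4 of the 7 and 3, 3 and 7 relatives, and edgeR with the Y-linked covariate called 879, 47 and 429, with 6, 0 and 4 of the 7 and 2, 0 and 3 relatives. Mei1 (3 to 35 counts per library), Slc38a11 (15 to 70) and Lad1 in RA-PBS (6 to 31) rest on few counts.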
